A study of Homo sapiens with 10 samples.

Results

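The proteasome is the large protease that degrades ubiquitin-tagged proteins, and its subunits are encoded by genes whose symbols start with PSM. All rows of the deposited table whose symbol was PSM, a letter from A to G and a number were taken, which gave 46 genes of 20591. No row carried the symbol of PSMB3, a structural subunit, or of PSMB11, the thymic catalytic subunit, and these 2 are not analysed here. All 46 genes reached a level of 5 in at least 1 pure line.

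The series measured bulk RNA from 4 human blood cancer lines and from 6 mixtures of them, with 1 library each. The lines were HL60 (promyelocytic leukaemia), K562 (chronic myeloid leukaemia with erythroid features), SUDHL4 (germinal-centre B cell lymphoma) and THP1 (monocytic leukaemia). Every sample was labelled WT, with no treatment, at day 0. Each mixture was labelled as made of the same 4 lines, in ratios that are not given. No group had a replicate, so no difference between libraries has a replicate check, no p-value could be given, and intervals cover counting error alone.

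The core particle is a barrel of alpha rings around beta rings, and 3 beta subunits, PSMB5, PSMB6 and PSMB7, cut the substrate. Interferon induces a substitute for each, PSMB8 for PSMB5, PSMB9 for PSMB6 and PSMB10 for PSMB7, and cores built with them, called immunoproteasomes, favour peptides that bind MHC class I. The regulatory particle that unfolds substrates consists of a base, with a ring of ATPases, and a lid; PSME proteins form alternative activators, and chaperones guide the assembly of core and base.

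Levels are normalised CPM, that is, reads per 1000000 on the authors' common scale for all libraries. The libraries held 24985570 (mixture 5) to 36607612 reads (mixture 1), and 1 read was worth 0.0409 to 0.0594. The markers matched the labels: MPO was at 15645 in HL60, HBE1 at 2755 in K562, MS4A1 at 2669 in SUDHL4 and CSF1R at 256 in THP1. Of 5 measured markers of other cells, none reached 5 in a pure line, and the highest was CD3E at 4.83 in SUDHL4. A gene was called different between lines when log2(value + 1) differed by 1 or more and the gene reached 5 in one of the lines compared. The pseudocount of 1 understates folds of low genes.

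The 3 immune catalytic subunits were the members that separated the lines most, next to PSMA8. PSMB8 stood at 177 in HL60, 0.268 in K562, 66.8 in SUDHL4 and 281 in THP1. PSMB9 stood at 35.1 in HL60, 0.155 in K562, 14.9 in SUDHL4 and 63.4 in THP1. PSMB10 stood at 48.3 in HL60, 1.74 in K562, 13 in SUDHL4 and 72.8 in THP1. The order was the same for all 3 genes, THP1 above HL60 above SUDHL4 above K562, also when libraries were scaled to plain totals or to 14 housekeeping genes. No counting intervals of neighbouring lines overlapped in that order.

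The K562 levels of PSMB8 and PSMB9 were close to the limit of 3 reads, at 0.0988, and that of PSMB10 lay above it. They rested on 9 reads for PSMB8 (95% Poisson interval of the level 0.13 to 0.497), 5 reads for PSMB9 (0.06 to 0.344) and 61 reads for PSMB10 (1.33 to 2.23). From the reads, THP1 was above K562 by 1105-fold for PSMB8 (582 to 2418), 449-fold for PSMB9 (192 to 1383) and 42.2-fold for PSMB10 (32.8 to 55.4). HL60 was above K562 by 696-fold, 249-fold and 28-fold, and SUDHL4 by 263-fold, 106-fold and 7.53-fold. PSMB10 thus showed the smallest of the 3 folds in each of these lines. PSMB8-AS1, an antisense transcript that overlaps PSMB8, had levels of 4.88 in HL60, 0 in K562, 1.89 in SUDHL4 and 15.5 in THP1, the same order as PSMB8. In GENCODE 29, 20.6% of the exon bases of PSMB8 lay opposite exons of PSMB8-AS1 or PSMB9, and no source used here says whether the authors' counting used strand. For PSMB10, 34.8% of the exon bases were shared with AC040162.1 on the same strand. What part such overlap has in the levels was not tested.

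PSMB8 (chromosome 6, 32840717 to 32844703, minus strand, GRCh38) and PSMB9 (chromosome 6, 32844136 to 32859585, plus strand) are neighbours in the MHC class II region, beside the peptide transporter gene TAP1. PSMB10 lies on chromosome 16 (67934502 to 67937087, minus strand). Promoter windows from RefSeq on GRCh38.p14, 250 bases before to 50 after a start site, were found for 40 of the 46 members, including PSMB5 and the 3 immune subunits. They were searched on both strands for the letters of the interferon-stimulated response element (ISRE), GAAA, any 2 bases and GAAA again, which interferon regulatory factors bind. These letters were in 7 of the 49 windows of these members, each of another gene, against 3.57% of all 35116 windows of the table: PSMA4, PSMB4, PSMB8, PSMB10, PSME1, PSME2 and PSMG4. In 5 of them the match read GAAAGCGAAA, letters chosen after the matches were seen, which 0.0997% of all windows (35) held. Those 5, and TAP1 for comparison, are shown with 10 bases on each side, on the strand where the match reads GAAAGCGAAA, with the match in capitals.
PSMB8, chr6:32844032-32844061, plus strand, match from 4 bases before to 6 after one of its 2 start sites: aggaggaagtGAAAGCGAAAgccacagatc
PSMB10, chr16:67936852-67936881, minus strand, match from 21 to 12 bases before the start: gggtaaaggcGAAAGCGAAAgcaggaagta
PSME1, chr14:24136189-24136218, minus strand, match from 6 to 15 bases after the start: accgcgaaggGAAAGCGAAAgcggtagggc
PSME2, chr14:24146619-24146648, minus strand, match from 28 to 19 bases before the start: cctggggagtGAAAGCGAAAgcccgggcga
PSMG4, chr6:3258904-3258933, plus strand, match from 33 to 24 bases before the start: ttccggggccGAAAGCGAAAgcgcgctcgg
TAP1, chr6:32853813-32853842, plus strand, match from 128 to 119 bases before the start: ccatttagggGAAAGCGAAAtcgaaagcgg

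Of these 5 members, PSMB8, PSMB10 and PSME1 were at least 1 log2 unit lower in K562 than in every other line. PSME2 was lowest in K562 by less, and PSMG4 was lowest in THP1. Among all 24 tested genes with GAAAGCGAAA in a window, 5 (20.8%) were lower in K562 by that rule, against 5.61% of genes with a window. They were PSMB8, PSMB10, PSME1, TAP1 and PSMB8-AS1, and the rest of the 24 were not. A match describes letters and shows no binding. The window of PSMB9 held neither these letters nor those of the interferon gamma activated site (GAS), TTCNNNGAA. The start sites of PSMB9 and TAP1 lay 488 bases apart on opposite strands, and the TAP1 match ended 360 bases before the PSMB9 start, outside the PSMB9 window. The bases between the annotated exons of TAP1 and PSMB9 within that window are shown on the plus strand, as the stretch that both genes have upstream, with the only match of the 3 searches in capitals, to TGACNNNGC, the letters of the antioxidant response element (ARE).
PSMB9, chr6:32853979-32854147: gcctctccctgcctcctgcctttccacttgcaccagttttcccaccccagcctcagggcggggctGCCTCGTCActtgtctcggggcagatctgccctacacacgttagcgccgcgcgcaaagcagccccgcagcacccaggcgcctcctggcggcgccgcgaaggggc

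GAS letters were in 8 of the 49 windows, each of another gene, against 7.66% of all windows: PSMA2, PSMA8, PSMB5, PSMB8, PSMC4, PSMD2, PSMD3 and PSME3. ARE letters, to which the stress factors NFE2L1 and NFE2L2 bind, were in 14 of the 49 windows, against 13.3% of all windows. PSMB8 was the one member with both GAS and ISRE letters.

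The constitutive catalytic subunits followed another order. PSMB5, the chymotrypsin-like subunit, stood at 138 in HL60, 196 in K562, 78.4 in SUDHL4 and 78.4 in THP1. PSMB6, the caspase-like subunit, stood at 138 in HL60, 159 in K562, 134 in SUDHL4 and 73.1 in THP1. PSMB7, the trypsin-like subunit, stood at 395 in HL60, 307 in K562, 154 in SUDHL4 and 131 in THP1. K562, where the immune subunits were lowest, was highest for PSMB5 and PSMB6 and next to HL60 for PSMB7, while THP1, where the immune subunits were highest, was lowest for PSMB6 and PSMB7 and level with SUDHL4 for PSMB5. With housekeeping scaling SUDHL4 was highest for PSMB6 and THP1 lowest for all 3. The ranges over the lines were 1.31, 1.11 and 1.59 log2 units, against 7.80, 5.80 and 4.75 for PSMB8, PSMB9 and PSMB10.

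**Figure D1:**
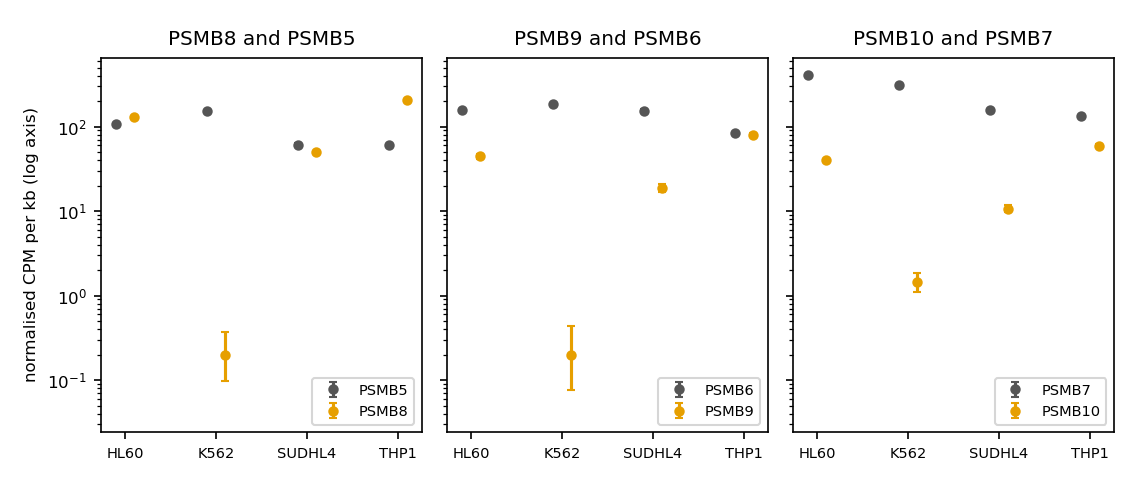
Level per kilobase of transcript (normalised CPM per kb, log axis) of each immune catalytic subunit (orange) and its constitutive counterpart (grey) in the 4 pure lines, 1 library each; bars are 95% Poisson intervals of the reads. In K562 PSMB8 lay at 0.199 per kb against 151 for PSMB5, while in THP1 it lay at 208 against 60.6.

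Levels of different genes were compared per kilobase of the longest protein-coding transcript in GENCODE 29. The immune share of a pair is the immune subunit's per-length level divided by the sum of both, with exact 95% binomial intervals carried over from the reads. For PSMB8 with PSMB5 the share was 55.1% in HL60 (54.1 to 56.1), 0.124% in K562 (0.0568 to 0.236), 44.9% in SUDHL4 (43.4 to 46.5) and 77.4% in THP1 (76.7 to 78.2). For PSMB9 with PSMB6 it was 21.9% in HL60 (20.7 to 23.1), 0.0975% in K562 (0.0317 to 0.227), 10.9% in SUDHL4 (9.9 to 11.9) and 48.8% in THP1 (47.3 to 50.3). For PSMB10 with PSMB7 it was 8.95% in HL60 (8.51 to 9.41), 0.449% in K562 (0.343 to 0.576), 6.36% in SUDHL4 (5.73 to 7.04) and 30.9% in THP1 (29.8 to 32.0). All 3 pairs ranked the lines alike, and the counting intervals of the 4 lines did not overlap for any pair. A share within a library does not move with the scaling between libraries. In HL60, SUDHL4 and THP1 the PSMB8 pair had the largest and the PSMB10 pair the smallest share, whereas in K562 the PSMB10 pair had the largest. The order of the PSMB9 and PSMB10 pairs turned with the longest transcript of any type, an alternative added after seeing the data: the PSMB9 share was then 22% in THP1, 7.65% in HL60 and 3.49% in SUDHL4, while the PSMB10 shares were as above. These are shares of transcripts, and assembled cores were not measured. The percentages depended on the transcript lengths used: with the mean length over transcripts the median share over the 3 pairs was 14.3% in HL60, 6.78% in SUDHL4 and 36.3% in THP1, against 21.9%, 10.9% and 48.8%.

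**Figure D2:**
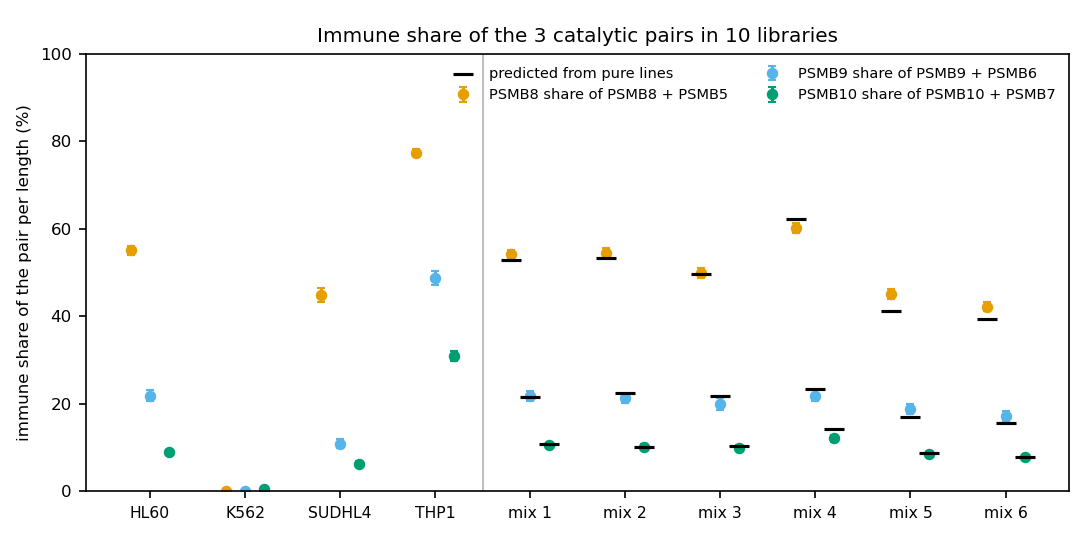
Share of the immune subunit in each catalytic pair per transcript length (%, vertical axis) in the 4 pure lines and mixtures 1 to 6, 1 library each; bars are 95% binomial intervals of the reads and black dashes the shares predicted from the pure lines. The PSMB8 share ran from 0.124% in K562 to 77.4% in THP1, and in the mixtures it lay within 3.75 percentage points of the prediction.

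The activator genes differed in which line was lowest. PSME1 and PSME2 encode the alpha and beta subunits of the interferon-inducible PA28 ring. PSME1 stood at 151 in HL60, 41.9 in K562, 91.5 in SUDHL4 and 129 in THP1, and PSME2 at 139.8 in HL60, 86.6 in K562, 149 in SUDHL4 and 190.5 in THP1. K562 was lowest for both, also under both other scalings. PSME3, the nuclear PA28 gamma, stood at 389 in HL60, 298 in K562, 380.5 in SUDHL4 and 169.8 in THP1. PSME4, the PA200 activator, stood at 131 in HL60, 239 in K562, 187 in SUDHL4 and 75.3 in THP1. For these 2 THP1 was lowest. The inhibitor gene PSMF1 (PI31) stood at 307 in HL60, 139 in K562, 205 in SUDHL4 and 85 in THP1, a range of 1.84 log2 units with no overlap of counting intervals.

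K562 was lower than all 3 other lines by 1 log2 unit or more for 4 of the 46 members, PSMB8, PSMB9, PSMB10 and PSME1, which is 8.7% against 5.59% of 11717 genes tested. The same 4 were found under both other scalings, with pseudocounts of 0.1 and 5 and with minimum levels of none and 20. At a 1.5-fold threshold PSME2 joined them, and at 4-fold PSME1 left. Of 13 listed genes of class I antigen processing, 8 passed the same rule and 12 had their lowest line in K562. Of all genes without a tie for lowest, 23.2% had their lowest line in K562. TAP1 stood at 82.5 in HL60, 4.62 in K562, 38.3 in SUDHL4 and 86.2 in THP1. NLRC5, the class I transactivator, stood at 59.4 in HL60, 0.0424 in K562, 5.49 in SUDHL4 and 26.7 in THP1. Both had their lowest level in K562, and NLRC5 differed from PSMB8 in being highest in HL60. HLA-B, whose close homologues make its count uncertain, stood at 765 in HL60, 0.24 in K562, 88.2 in SUDHL4 and 409.9 in THP1. Of 9 measured interferon regulators (of 10 listed), none passed the rule in K562 (5.59% of all genes) and 2 were lowest there (23.2%). The range reached 2 log2 units for 3 of them, against 42.1% of all genes. IRF8 stood at 0 in HL60, 0.0424 in K562, 159.6 in SUDHL4 and 570.2 in THP1, and so shared the highest line with PSMB8 but not the level in HL60. IRF1 and IFNGR2, named after their values were seen, had the order of the immune subunits: IRF1 stood at 22.3 in HL60, 7.41 in K562, 10.3 in SUDHL4 and 25.6 in THP1, and IFNGR2 at 38.2, 25.7, 26.7 and 51.7. Their ranges were 1.66 and 0.98 log2 units, that of IFNGR2 below the threshold of 1. For IFNGR2 the levels in K562 and SUDHL4 were close, and no counting intervals were computed for these genes. JAK2 was highest in K562, at 43.1 against 8.2 in HL60. IRF2 was lowest in SUDHL4, at 3.4, and highest in THP1, at 17.4.

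PSMA8 was the member with the sharpest difference outside the catalytic subunits. It encodes an alpha subunit that replaces PSMA7 in the testis, where spermatocytes use it (chromosome 18, 26133852 to 26193355, plus strand). It stood at 0 in HL60, 0 in K562, 111 in SUDHL4 and 0 in THP1, with no read in those 3 libraries. Against a limit of 3 reads in each library, SUDHL4 was at least 942-fold above HL60, 1119-fold above K562 and 1034-fold above THP1. It was the only member higher in SUDHL4 than in all other lines by 1 log2 unit, 2.17% of members against 7.5% of all genes. PSMA7, its counterpart, had the narrowest range of all members, 0.39 log2 units, with 346 in HL60, 290.1 in K562, 273 in SUDHL4 and 263 in THP1. With housekeeping scaling the order of the lines for PSMA7 changed, and its range was 0.23.

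The other alpha subunits varied less. PSMA3 stood at 300.5 in HL60, 188 in K562, 179 in SUDHL4 and 108 in THP1, and PSMA4 at 370.2, 396, 233 and 163 in the same order of lines. THP1 was the lowest line for 6 of the 8 alpha genes, against 68.9% of all members without a tie and 32.1% of all genes. Of the 3 structural beta subunits, PSMB2 had the widest range (1.61), at 373 in HL60, 476 in K562, 212 in SUDHL4 and 155 in THP1, and PSMB4 the narrowest (0.73), at 472, 307, 284 and 347. PSMB1 stood at 466, 609.8, 241 and 279.

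PSMA2 and PSMA6, which encode alpha subunits present in every core particle, had few reads. PSMA2 stood at 4.01 in HL60, 4.87 in K562, 9.9 in SUDHL4 and 2.64 in THP1, and PSMA6 at 22.2, 15.3, 8.1 and 10.9. In GENCODE 29 they shared 14.6% and 14.1% of their exon bases with another gene on the same strand, PSMA1 24.7% and PSMD9 19.9%. The part of this in their levels was not tested.

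PSMD5, which encodes S5b, a chaperone of base assembly (chromosome 9, 120815496 to 120842984, minus strand), varied in another way. It stood at 9.13 in HL60, 148 in K562, 43.2 in SUDHL4 and 21.6 in THP1. From 5243 and 272 reads, K562 was 16.2-fold above HL60 (14.4 to 18.4), and it was 3.43-fold above SUDHL4 and 6.84-fold above THP1. PSMD5 was the single member called higher in K562 than in all other lines (2.17% of members against 9.22% of all genes) and the single member called lower in HL60 than in all others (3.12% of all genes). The order was the same under both other scalings, but with a pseudocount of 5 the difference between HL60 and THP1 was no longer called. The other chaperones of the base did not share the low level in HL60: PSMD10, or gankyrin, stood at 63.2, 82.0, 38.4 and 32.2 in HL60, K562, SUDHL4 and THP1, and PSMD9 at 4.84, 3.4, 8.02 and 2.61. PSMD10 was also highest in K562, by 1.07 log2 units over SUDHL4 and 1.32 over THP1. HL60 minus K562 was −0.37 for PSMD10, which was not called. PSMD9 was highest in SUDHL4.

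In the ATPase ring, HL60 was the highest line for 4 of 6 genes and K562 for the other 2. The shares were 47.8% and 37% over all members, and 24.8% and 30.2% over all genes. PSMC2 had the widest range (1.63), at 221 in HL60, 315 in K562, 164 in SUDHL4 and 101 in THP1, and PSMC3 the narrowest (0.59), at 329, 254, 219 and 259. For PSMC1, 75.8% of the exon bases lay opposite NRDE2, and its level was 166 in both K562 and THP1. Among the base subunits that recognise or hold substrates, PSMD1 stood at 214, 336, 246 and 148, PSMD2 at 379.6, 499, 469.6 and 242, and the ubiquitin receptor PSMD4 at 265, 231, 157 and 259.6.

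The lid holds the deubiquitinase PSMD14. All 8 lid genes were lowest in THP1, under the deposited and both other scalings. THP1 was also lowest for 68.9% of all members without a tie, against 32.1% of all genes, so this was not particular to the lid. PSMD11 had the widest range, 2.00 log2 units, at 181 in HL60, 156 in K562, 115 in SUDHL4 and 44.6 in THP1. PSMD14 stood at 279 in HL60, 378 in K562, 176 in SUDHL4 and 121 in THP1, and PSMD8, with the narrowest range (0.86), at 379, 329.7, 224 and 208. The 4 chaperones of core assembly were also lowest in THP1, but with housekeeping scaling 3 of 4 were. PSMG1 stood at 153 in HL60, 178 in K562, 115 in SUDHL4 and 36.6 in THP1, and PSMG4 at 26.1, 14.3, 12.1 and 5.88. PSMD11 and PSMG1 were the 2 members called lower in THP1 than in all other lines, 4.35% of members against 4.75% of all genes. No member was called higher in THP1 than in all other lines (8.44% of all genes), higher in HL60 (3.35%) or lower in SUDHL4 (6.95%).

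**Figure D3:**
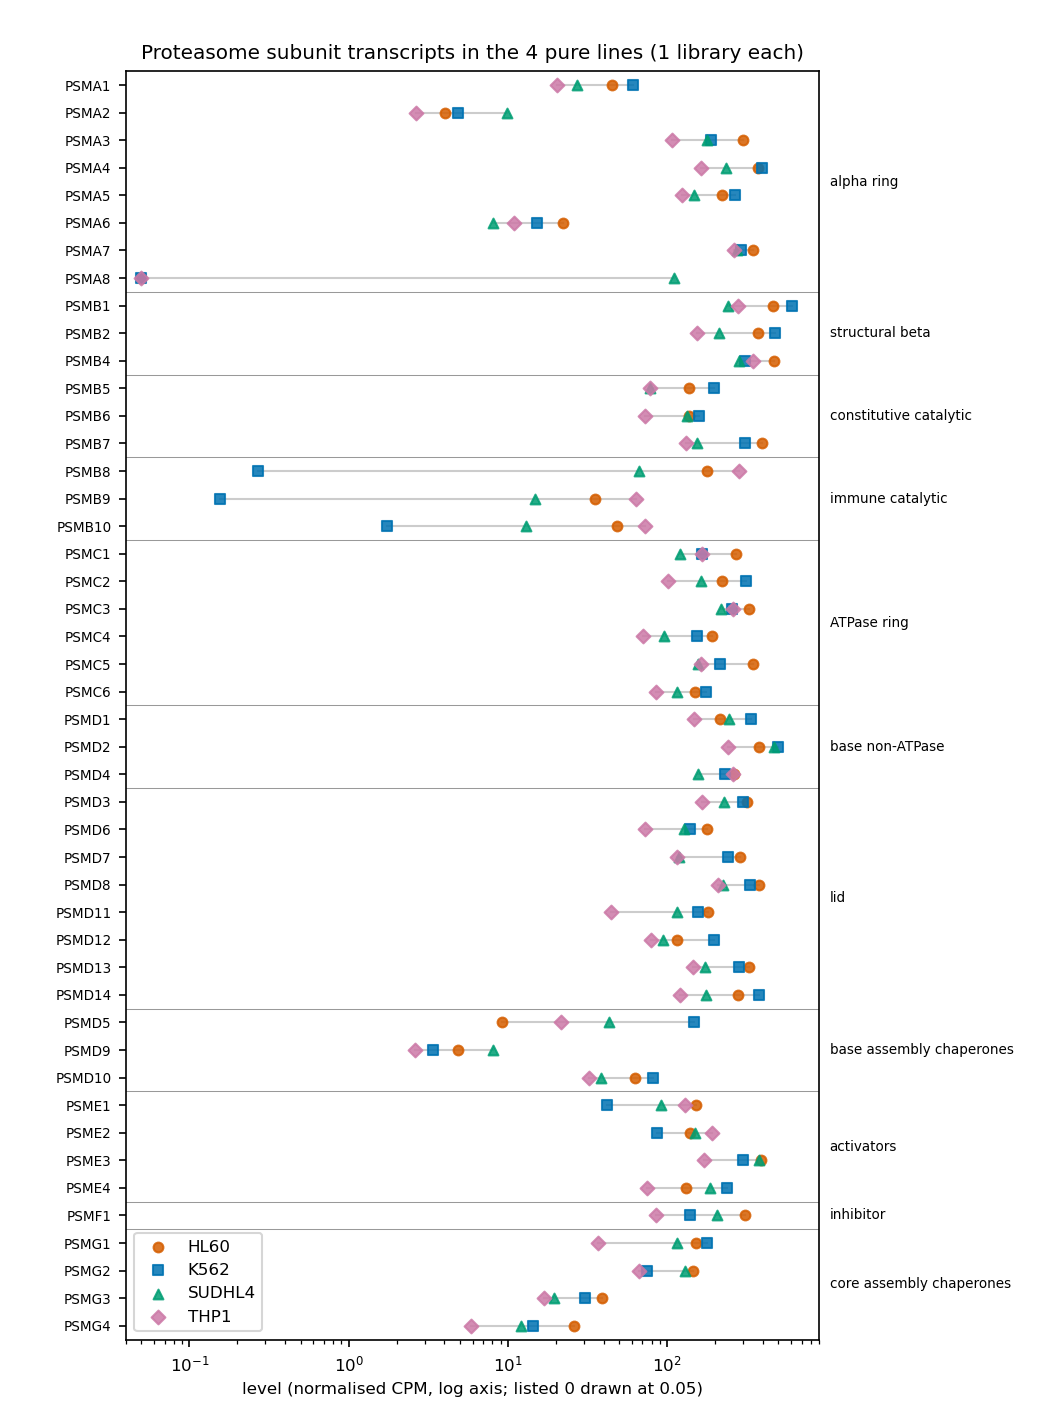
Level (normalised CPM, log axis) of each of the 46 members in the 4 pure lines, 1 library each, grouped by role; the grey line joins the lowest and highest line, and a listed 0 is drawn at 0.05. Most members lie within a 4-fold span, while PSMA8, PSMB8, PSMB9, PSMB10 and PSMD5 spread widely.

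Over all roles, a range of 1 log2 unit or more across the 4 lines was reached by 40 of 46 members (87.0%), against 76.9% of 11717 genes at 5 or more in a line. Plain totals gave 36 members and housekeeping scaling 34. The share of all genes was not computed under these scalings, so the excess over all genes holds for the deposited scale only. A range of 2 or more was reached by 7 of 46 (15.2%), against 42.1% of all genes. Those 7 were PSMB8 (7.80), PSMA8 (6.80), PSMB9 (5.80), PSMB10 (4.75), PSMD5 (3.88), PSMG1 (2.25) and PSMD11 (2.00). PSMC6, PSMD2 and PSMA5 lay just inside the threshold of 1, with ranges of 1.03 to 1.09, and PSMD3 (0.94) and PSMD8 (0.86) just outside. The median range was 1.32 for the members and 1.69 for all genes, and the middle 50% of members lay between 1.13 and 1.64, against 1.04 to 3.15.

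**Figure D4:**
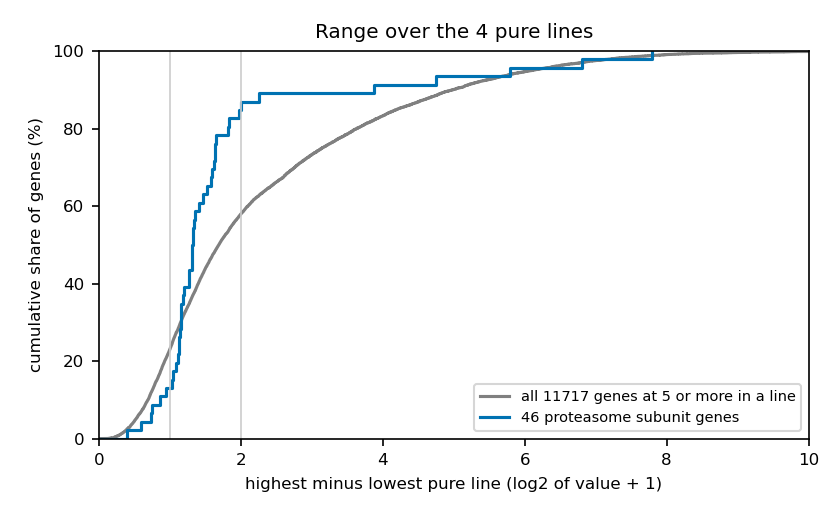
Cumulative share of genes (%, vertical axis) by range over the 4 pure lines, highest minus lowest log2(value + 1), for the 46 members (blue) and all 11717 genes at 5 or more in a line (grey); vertical lines mark 1 and 2. The members rise steeply between 1 and 2, and 15.2% lie at 2 or more, against 42.1% of all genes.

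The summed level of all members was 9539 in HL60, 8987 in K562, 6566 in SUDHL4 and 5453 in THP1, which is 0.861%, 0.92%, 0.658% and 0.553% of each column. THP1 was the lowest line for 31 of 45 members without a tie (68.9%), against 32.1% of all genes, and for 31 under both other scalings. HL60 was the highest line for 22 members and K562 for 17, against 24.8% and 30.2% of all genes. With housekeeping scaling these counts were 17 for HL60 and 15 for K562, against 16% and 25.4% of all genes. SUDHL4 rose from 3 to 8, while its share over all genes rose from 24.3% to 35.1%. Relative to the median of all genes, the members' median difference from the mean of the other lines was 0.47 in HL60, 0.32 in K562, −0.09 in SUDHL4 and −0.64 in THP1. A scaling of a whole library shifts members and all genes alike. That these values stayed within 0.01 under both other scalings is therefore no check of them. Housekeeping scaling moved the median of all genes in SUDHL4 from −0.10 to 0.18 and in HL60 from 0.08 to −0.13.

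Pair by pair, K562 against THP1 and HL60 against THP1 held the most calls. K562 was higher than THP1 for 22 of 43 members tested and lower for 5, against 25.6% and 21.4% of all genes, with a median difference of 1.03 against 0.23. With housekeeping scaling the split was 15 and 5, against 21.3% and 23.8% of all genes. HL60 was higher than THP1 for 19 of 43 and lower for 1, against 18.7% in each direction, with a median of 0.94 against 0.21. With housekeeping scaling the split was 10 and 2, against 13.2% and 21.9% of all genes. The 5 members higher in THP1 than in K562 were PSMB8, PSMB9, PSMB10, PSME1 and PSME2, so the immune subunits and PA28 ran opposite to the median of the members. SUDHL4 was higher than THP1 for 8 of 46 and lower for 3, the immune subunits, against 22.3% and 23.8%. The median was 0.40 against 0.11. Housekeeping scaling gave 13 and 3, against 26% and 22% of all genes.

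In the pairs without THP1, HL60 was higher than K562 for 5 of 43 members (PSMB8, PSMB9, PSMB10, PSME1 and PSMF1) and lower for PSMD5. Of all genes, 19.1% were higher and 21.3% lower, and the median was 0.22 for the members against −0.01. Plain totals gave 4 and 2, against 15.8% and 25% of all genes. HL60 was higher than SUDHL4 for 9 of 46 and lower for 3 (PSMA8, PSMA2 and PSMD5), against 20.4% and 17.9%, with a median of 0.66 against 0.12. Plain totals gave 7 and 3, against 17.4% and 20.3%, and housekeeping scaling 3 and 3, against 14.5% and 25.1%. K562 was higher than SUDHL4 for 9 of 46 and lower for 6, against 23.9% and 18.6%, with a median of 0.45 against 0.11. Housekeeping scaling turned that split to 2 and 9, against 19.3% and 25% of all genes, with a median of 0.13 against −0.22. The 6 pairs share libraries and are not independent of each other.

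Partner genes outside the symbol rule moved less. Of 25 listed names, 23 were measured. Of these, 11 had a range of 1 or more (76.9% of all genes) and 1 of 2 or more (42.1%). That 1 was USP14, a deubiquitinase bound to the base. USP14 stood at 375 in HL60, 292 in K562, 265 in SUDHL4 and 89.9 in THP1. THP1 was the lowest line for 15 of the 23 (32.1% of all genes), and no partner was called lower in K562 than in all other lines (5.59%).

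The mixtures show how subunit levels followed the RNA that each line contributed. The contribution of each line was estimated from 100 signature genes per line, none of them a member, and a member's predicted level was the sum of its pure levels weighted by the 4 coefficients. In bulk RNA, fewer cells of a line and less RNA per cell cannot be told apart. The largest shares were 28.9% THP1 in mixture 1, 48.5% HL60 in mixture 2, 39.5% K562 in mixture 3, 58.1% SUDHL4 in mixture 4, 54.0% K562 in mixture 5 and 53.2% K562 in mixture 6. Although every label names 4 lines, the estimate was 0% for SUDHL4 in mixture 3, 0.0136% for K562 in mixture 4 and 0.207% for HL60 in mixture 5.

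PSMA8 read the SUDHL4 contribution directly, since the other lines had no reads. Its levels in mixtures 1 to 6 were 20.5, 6.95, 0, 70.1, 10.3 and 14.1, which is 18.6%, 6.29%, 0%, 63.4%, 9.29% and 12.8% of the pure level. The estimated SUDHL4 coefficients were 21.6%, 6.37%, 0%, 56%, 11.4% and 11.2%. In mixture 3 no read was found, and the limit of 3 reads there was 0.105% of the pure level. PSMA8 was highest in mixture 4, the mixture with the most SUDHL4 RNA, and above prediction there and in mixture 6.

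The immune subunits lay close to their predictions, and they varied far less between mixtures than between lines. PSMB8 stood at 149, 192, 127, 147, 133 and 113 in mixtures 1 to 6, against predictions of 137, 151, 130.4, 140.2, 103 and 96.7. PSMB9 stood at 30.9, 37.6, 22.7, 31.5, 29.3 and 25.1, against 29.7, 31.8, 28.3, 31.1, 23.2 and 21.5. PSMB10 stood at 36.3, 50.2, 30.5, 30.5, 28.4 and 26.4, against 35.6, 40.3, 34.9, 34.2, 27.0 and 25.6. None was off its prediction by 0.5 log2 units, and the largest difference was 0.37, for PSMB8 in mixture 5. Of the constitutive subunits, PSMB5 stood at 121, 153, 122, 93.0, 155 and 148, PSMB6 at 122, 152, 99.7, 124, 139 and 133, and PSMB7 at 249, 354, 222, 178, 247 and 251. Both kinds were highest in mixture 2 except PSMB5, which was highest in mixture 5.

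As shares within the pair, PSMB8 made up 54.2%, 54.6%, 49.9%, 60.2%, 45.1% and 42.2% in mixtures 1 to 6, against predicted 52.9%, 53.4%, 49.6%, 62.2%, 41.3% and 39.5%. PSMB9 made up 21.8%, 21.4%, 20%, 21.9%, 18.8% and 17.2%, against 21.5%, 22.4%, 21.8%, 23.5%, 17.0% and 15.6%. PSMB10 made up 10.5%, 10.2%, 9.97%, 12.1%, 8.46% and 7.78%, against 10.8%, 10.2%, 10.4%, 14.2%, 8.78% and 7.86%. The largest gap was 3.75 percentage points, for PSMB8 in mixture 5, and in mixture 4 all 3 shares were below prediction, with differences of −2.02, −1.63 and −2.17 points. Mixtures 5 and 6, with the most K562 RNA, had the lowest share for every pair.

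PSMD5 stood at 45.7, 33.2, 62.8, 29.3, 76.2 and 69.3 in mixtures 1 to 6, against predictions of 50.5, 41.5, 62.1, 31.7, 90.8 and 88.3. It was highest in the 3 mixtures with the most K562 RNA and above its prediction in 1 of 6. PSMG4, a chaperone of core assembly, departed most from prediction among the members. It stood at 20.2, 29.3, 13, 14.5, 17.9 and 16.2, against 14, 17.1, 13, 11.2, 11 and 12.3, with differences of 0.75 log2 units in mixture 2, 0.66 in mixture 5 and 0.50 in mixture 1.

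**Figure D5:**
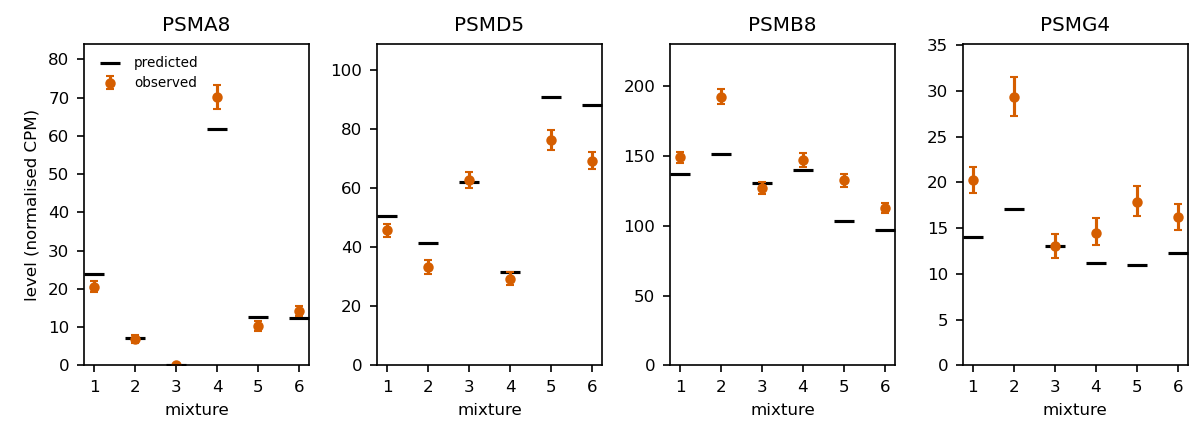
Level (normalised CPM) of PSMA8, PSMD5, PSMB8 and PSMG4 in mixtures 1 to 6, 1 library each; orange points are observed levels with 95% Poisson intervals and black dashes the levels predicted from the pure lines. PSMA8 peaks at 70.1 in mixture 4, and PSMG4 lies above its prediction in 5 of 6 mixtures.

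Members off prediction by 0.5 log2 units or more numbered 1 of 46 in mixture 1 (against 1.56% of all genes), 4 of 46 in mixture 2 (16.9%), 0 of 43 in mixture 3 (0.642%), 1 of 46 in mixture 4 (2.95%), 1 of 45 in mixture 5 (11.3%) and 1 of 45 in mixture 6 (4.98%). The calls in mixture 2 were PSMG4, PSMG3, PSMA1 and PSMD9, all above prediction, that in mixture 4 was PSMA2 and that in mixture 6 PSMD9. The median difference of the members was 0.05, 0.26, −0.04, 0.16, 0.10 and 0.05 in mixtures 1 to 6, and that of all genes −0.01, 0.01, 0.01, 0.05, −0.03 and −0.01. In mixture 2, 39 of 46 members lay above prediction, against 50.7% of all genes, and in mixture 4, 42 of 46, against 59.3%. In mixture 3, 12 of 43 did, against 52.9%. With these coefficients PSME1 was above prediction in all 6 mixtures, and PSMD2 in none. The coefficients summed to between 0.908 (mixture 3) and 0.983 (mixture 5). Rescaling them to 1 left 24 of 46 members above prediction in mixture 1, where 37 were before, and 35.9% of all genes. In mixture 3 it left 0 of 43, PSME1 included, and 18.4% of all genes. With coefficients from all genes at 5 or more, 30 of 46 were above in mixture 4, against 45.7% of all genes. With 50 signature genes, 5 of 43 were above in mixture 3, against 43.6%.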

How the data were processed

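RNA sequencing was analysed for 10 libraries, 4 pure lines and 6 mixtures, assigned to groups by their titles. The labels name a total RNA kit and an mRNA kit without saying which library had which. The submitters' processing notes name HISAT2, featureCounts, hg19 and Cell Ranger ARC 2.0.0; annotation and settings are not given in the sources used here. A single table of signal values on the CPM scale was deposited by the authors. Its columns sum to between 909942 and 1108151, so libraries had been rescaled by a method that these sources leave out. Every deposited signal above 0 was a whole number of reads plus 0.5, times a constant per column (100% of values, tolerance 0.01). The design had assumed plain CPM, and its rules were kept.

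Reads were recovered from these steps and gave exact Poisson and binomial intervals (95%) and the limit of 3 reads; amplified reads are not independent molecules, so these cover counting error only. Differences are of log2(value + 1). Mixture coefficients came from non-negative least squares (scipy 1.17.1, numpy 2.4.6, pandas 2.3.3, Python 3.11.15), tested on simulated data, as were the calls. Lengths, positions and exon overlap came from GENCODE 29 by Ensembl ID, and promoters from RefSeq; both use GRCh38, not the authors' hg19. All members could be named: the catalytic subunits and those with a range of 1 or more in full, and the widest and narrowest of each role. Other genes were named if called between K562 and all other lines or with a range of 2 or more. IRF1 and IFNGR2 were named outside this rule, and line markers were listed separately. Members and lists were chosen with earlier results of these data known.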

Additional observations from a re-analysis of the deposited data

How the results depend on the processing

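No paired analysis was possible because each group holds 1 library. Over 188 alternatives to the main results, 139 stayed within 1.5 times a count or within the error of a value and 49 moved. Why they moved was not tested. None was scored as reversed, but only medians could be, since counts and shares were scored only as the same or moved. A median between lines cannot change with the fold threshold, so those alternatives were the same by construction. Counts of calls pool both directions. Housekeeping scaling turned the split of K562 against SUDHL4 from 9 higher and 6 lower to 2 and 9, which was scored as the same. All genes went from 23.9% and 18.6% to 19.3% and 25%. A 4-fold threshold left 7 members with a called range. In the order HL60 against SUDHL4, HL60 against THP1, K562 against SUDHL4, K562 against THP1 and SUDHL4 against THP1, it left 2, 2, 4, 5 and 4 calls. A 1.5-fold threshold gave 16 calls for HL60 against K562, 31 against SUDHL4 and 34 against THP1, 27 for K562 against SUDHL4 and 21 for SUDHL4 against THP1. Over the 6 pairs, 24.8% to 38.2% of all genes were called in a direction at 1.5-fold, and 3.8% to 15.7% at 4-fold. These shares count 1 direction, while the member counts pool both. By direction at 1.5-fold, HL60 against K562 had 12 higher and 4 lower, against 28.6% and 30.5% of all genes. HL60 against SUDHL4 had 27 and 4, against 32.3% and 26.1%, and HL60 against THP1 31 and 3, against 33.8% and 24.8%. K562 against SUDHL4 had 18 and 9, against 33.9% and 26.7%, and SUDHL4 against THP1 17 and 4, against 33.6% and 31%. Housekeeping scaling gave 6 calls for HL60 against SUDHL4 and 12 against THP1. The medians were 0.29 and 0.71, against −0.26 and −0.02 for all genes. The median immune share of the 3 pairs was 20.3% in HL60 and 46.4% in THP1 with no length correction. With mean transcript lengths it was 14.3% (HL60), 6.78% (SUDHL4) and 36.3% (THP1). As 1 sum over all 6 subunits it was 24.3% (HL60), 0.274% (K562), 17.5% (SUDHL4) and 55.6% (THP1). With the longest transcript of any type, chosen after seeing the data, it was 8.95% (HL60), 6.36% (SUDHL4) and 30.9% (THP1). The alternatives for the K562 calls and the mixture medians were also chosen after seeing the data. At 0.25 log2 units, 2, 25, 1, 11, 7 and 6 members were off prediction in mixtures 1 to 6. The shares over all genes were 14.4%, 49.7%, 8.61%, 25.5%, 41.5% and 27.8%. At 1 log2 unit 0 members were off in any mixture, against 0.107% to 1.24% of all genes. In mixture 1 the count was also 0 with 50 signature genes, rescaled coefficients, all genes or plain totals, in mixture 4 with rescaled coefficients or all genes, and in mixture 6 with rescaled coefficients. The median difference became 0.00 (mixture 1) and −0.18 (mixture 3) with rescaled coefficients, −0.07 (mixture 3) with 50 signature genes and 0.06 (mixture 4) with all genes. In the same order, the medians over all genes were −0.05, −0.13, −0.02 and −0.02.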

Other observations

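The letters searched in the promoters were also set against the whole table, as a description. Among 9166 genes with a symbol, a promoter window and a level of 5 or more in a pure line, 5.61% were lower in K562 than in all 3 other lines by 1 log2 unit or more. Among the 368 with ISRE letters (GAAA, any 2 bases, GAAA) the share was 10.1% (37 genes), and among the 773 with TTCNNNGAA it was 5.05%. PSMB8, PSMB10 and PSME1, whose levels were known, are among the 37, and PSMB8-AS1 holds the same match as PSMB8 in an overlapping window. For the ISRE letters the shares lower in HL60, SUDHL4 and THP1 were 4.08%, 6.52% and 4.08%, against 2.75%, 7% and 5.2% of all genes with a window.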
